A study of Mus musculus with 18 samples.

Results

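The genes of the mitochondrial respiratory chain are described here in the hippocampus of mice fed a cannabis extract during adolescence. A gene was included when its symbol in the platform annotation began with Nduf, Sdha, Sdhb, Sdhc, Sdhd, Uqcr or Atp5, or with Cox followed by a digit. This gave 100 genes of 19057 named genes on the array, each read through 1 probe, the one with the highest mean over all arrays. Of these, 92 were brighter than the level of unexpressed probes in at least 4 arrays and entered the tests, and 88 were brighter in all 18.

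Total RNA was measured on single-colour Illumina bead arrays, 1 array per sample, in 4 groups. Adult cannabis mice (5 arrays) and adult vehicle mice (5 arrays) were labelled P56, that is postnatal day 56. P28 cannabis mice (4 arrays) and P28 vehicle mice (4 arrays) were labelled P28. All were of the C57Bl6/J strain. Cannabis mice had 20 mg/kg of extract daily for 14 days, from P14 to P28, and vehicle mice the feed without extract. The P28 mice were killed 70 to 80 minutes after feeding began on the last day. The adults had gone through behavioural tests, and then phencyclidine with 2 weeks of washout, in both treatments. Age therefore cannot be told apart from testing, phencyclidine and washout. No label says whether an array holds 1 animal or pooled tissue, so every p-value refers to sample-to-sample spread, part of which may be technical.

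The respiratory chain sits in the inner mitochondrial membrane. Complex I (NADH dehydrogenase) and complex II (succinate dehydrogenase) pass electrons to ubiquinone, complex III passes them to cytochrome c and complex IV (cytochrome c oxidase) passes them to oxygen. Complexes I, III and IV pump protons, and complex V (ATP synthase) uses the proton gradient to make ATP, on which neurons rely for ion pumping and synaptic transmission. Most subunits are encoded in the nucleus, and several complex IV subunits have a general isoform and others that are prominent in muscle or testis.

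Every complex was represented. The 92 genes comprised 32 of the 34 complex I subunits found by the rule, 3 of 4 of complex II, 7 of 7 of complex III, 13 of 16 of complex IV (Ndufa4 included) and 16 of 16 of complex V. They also comprised 7 of 8 assembly factors of complex I, 4 of 4 of complex II and 8 of 9 of complex IV, the pseudogene Ndufs5-ps and the supercomplex factor Cox7a2l. The probes of 6 genes exceeded the level of unexpressed probes in no array: Cox4i2, Cox7b2 and Cox8c, which encode isoforms typical of lung or testis, the assembly factor Ndufaf6, and the core subunits Ndufs1 and Sdha. Ndufb11 and the complex IV assembly factor Cox16 each exceeded it in 1 array. Ndufs1 and Sdha encode catalytic subunits, so these values describe those probes and not the transcripts.

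Values are log2 intensities that the authors had normalised so that all 18 arrays share one distribution. Judged by the values, with unexpressed probes peaking at 6.77, background was not subtracted. Differences are then smaller than the true ones, dim probes being affected most. Markers of neurons, interneurons, astrocytes, oligodendrocytes and microglia were present, as hippocampal tissue would hold, although the probes of the neuronal markers Snap25 and Nefl exceeded background in no array. Arrays of one group correlated with each other at 0.971 to 0.994 over all probes tested, and none looked like a repeat of another.

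Some arrays stood apart before any comparison was made. Replicates 4 and 5 of each group differed from replicates 1 to 3 of the same group in 34 of the 92 genes (limma, adjusted p under 0.05), 19 higher and 15 lower, or 37% of them against 23.6% of the 18217 probes tested. Atp5a1, the α subunit of ATP synthase, moved most. It measured 10.63, 9.89, 9.52, 10.88 and 10.75 in adult cannabis replicates 1 to 5 and 9.87, 9.71, 9.92, 10.37 and 10.71 in adult vehicle replicates 1 to 5. It measured 9.94, 9.86, 9.21 and 10.49 in P28 cannabis replicates 1 to 4 and 10.09, 10.23, 9.47 and 10.89 in P28 vehicle replicates 1 to 4. The arrays numbered 4 or 5 were the highest of their group in every group, and the log2 difference between the sets was 0.81 ± 0.15 (SE, adjusted p = 0.00100 in limma).

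Members of one complex went both ways in that split. The membrane-arm subunits of complex I Ndufb5 (0.58), Ndufb2 (0.58), Ndufb10 (0.57), Ndufb9 (0.54) and Ndufb4 (0.43) were higher in replicates 4 and 5, as was Ndufa6 (0.42 ± 0.04, adjusted p = 1.34e-05 in limma). Within the same complex Ndufs6 was lower by a log2 difference of -0.25. In ATP synthase, Atp5c1, the γ subunit of the rotor, was lower (-0.30) and so was the catalytic β subunit Atp5b (-0.24). The general complex IV subunit Cox4i1 was higher (0.37), and Sdhd, a membrane anchor of complex II, was higher (0.52). These genes were chosen after their values were seen. Because each group holds both kinds of array, each comparison below was also made without replicates 4 and 5. Adult groups hold replicates 4 and 5 and P28 groups replicate 4 only, so comparisons between ages are not balanced for this split.

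**Figure D1:**
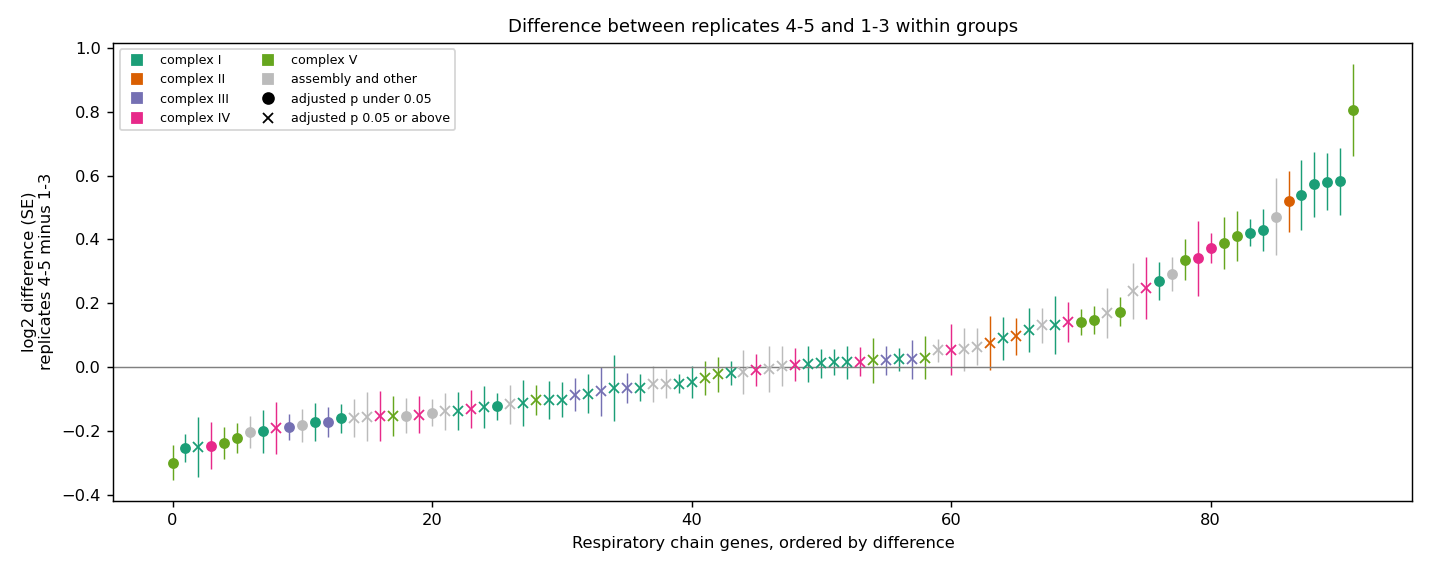
Log2 difference (y axis, with SE) between replicates 4 and 5 and replicates 1 to 3 of the same group, for the 92 respiratory chain genes in order of the difference (x axis). Of these, 34 passed an adjusted p of 0.05 (filled circles), 19 higher and 15 lower, with Atp5a1 at the top at 0.81 and Atp5c1 at the bottom at -0.30.

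Subunit genes of one complex did not share 1 pattern across arrays. After group means were removed, pairs of complex I genes correlated at a median r of 0.0883 (range -0.804 to 0.945, 496 pairs over 18 arrays), and the 105 pairs of complex V genes at a median of 0.0307. The points share the 4 groups and the split of replicates 4 and 5. The SD within groups had a median of 0.141 over the 92 genes, against 0.121 over all probes tested. It was lowest for Ndufv1 (0.0437), the subunit that binds NADH, and highest for Atp5a1 (0.53).

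**Figure D2:**
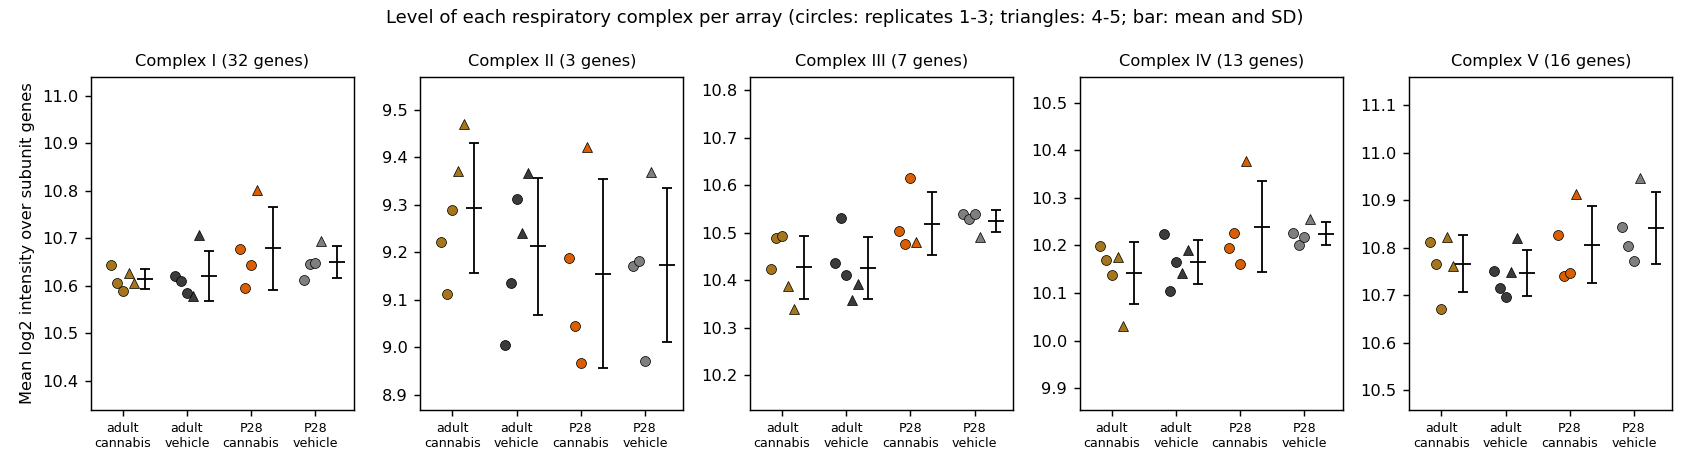
Mean log2 intensity over the subunit genes of each complex (y axis) in every array of the 4 groups (x axis), with the group mean and SD. Adult and P28 arrays overlap in every complex, and P28 cannabis replicate 4 is the highest array for complex I at 10.80.

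The first comparison asks what 2 weeks of cannabis feeding had done by the end of dosing. At P28, no respiratory chain gene passed the test between cannabis and vehicle mice: 0 of 92 had an adjusted p under 0.05, as did 0% of the 18217 probes, and the lowest adjusted p of a member was 1.00 (limma, Benjamini-Hochberg). By sign, 48 genes were higher and 44 lower in cannabis mice (probes 49.6% and 50.4%), and the median log2 difference was 0.01, against -0.001 over all probes. At an unadjusted p under 0.05 there were 2 genes, both higher, or 2.17% of members against 1.78% of probes (1.02% higher, 0.769% lower). The 95% interval of the difference lay within ±0.5 for 83 of the 92 genes and within ±0.25 for 43, so changes beyond those sizes lay outside the intervals of those genes.

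Complex I genes leaned to higher values at P28. Of its 32 genes 22 were higher in cannabis mice, with a median of 0.06, while 49.6% of all probes were higher. The complex I level, the mean over its genes, was 10.68 ± 0.09 in P28 cannabis mice and 10.65 ± 0.03 in P28 vehicle mice (SD, n = 4 each), a gap smaller than the SD in cannabis mice. In replicates 1 to 3 alone the median over the genes was 0.03 with 22 higher, and between the replicate 4 arrays alone, 1 against 1, it was 0.13 with 24 higher. Where a gene had further probes above background, they agreed in sign at P28 in 12 of 27 genes of all complexes. The remaining complexes had medians of -0.02 (complex II, 0 of 3 higher), -0.04 (III, 3 of 7), 0.02 (IV, 8 of 13) and -0.02 (V, 6 of 16).

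The gene with the smallest p at P28 was Cox8b, an isoform of a small complex IV subunit that is typical of heart, skeletal muscle and brown fat. It measured 6.83, 7.28, 7.02 and 7.54 in P28 cannabis mice, against 6.86, 6.76, 7.13 and 6.85 in P28 vehicle mice. It exceeded the background level of 6.98 in 3 of the 4 cannabis arrays and 1 of the 4 vehicle arrays, and the groups overlapped. With most vehicle values at background, the size of the difference is uncertain. The log2 difference was 0.27 ± 0.11 (SE, unadjusted p = 0.028, adjusted p = 1.00 in limma). The muscle isoform Cox7a1, which measured 7.32, 7.49, 7.37 and 7.57 in P28 cannabis mice and 7.25, 7.42, 7.29 and 7.30 in P28 vehicle mice, had a difference of 0.13 ± 0.06 (unadjusted p = 0.055 in limma).

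Cox8b was highest in the array with the most choroid plexus signal, P28 cannabis replicate 4. The choroid plexus is the secretory epithelium of the brain ventricles that adjoins the hippocampus, and 7 of 8 marker genes entered the tests. Their mean level ranged from 7.78 to 9.86 in P28 cannabis mice, from 7.27 to 8.85 in P28 vehicle mice, from 7.41 to 7.66 in adult cannabis mice and from 7.22 to 7.84 in adult vehicle mice. In P28 cannabis replicates 1 to 4 the level was 7.78, 9.56, 9.01 and 9.86, the same order as the Cox8b values. Within groups, 0 of 92 genes passed for a slope against this level, as did 0.187% of probes (limma). The lowest adjusted p of a member was 0.057, for Cox8b itself, which also had the steepest slope, 0.25 per log2 unit of the level (limma). Cox8b was above background in only 5 of 18 arrays, so the size of its slope is uncertain. With this level in the model, the median over complex I genes at P28 was 0.02, with 21 of 32 higher. The part of choroid plexus tissue in these values was not tested further. Muscle was represented by Acta1 alone, at 7.98 in P28 cannabis mice and 7.99 in P28 vehicle mice, while the probes of Myh7 and Ckm exceeded background in no array.

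**Figure D3:**
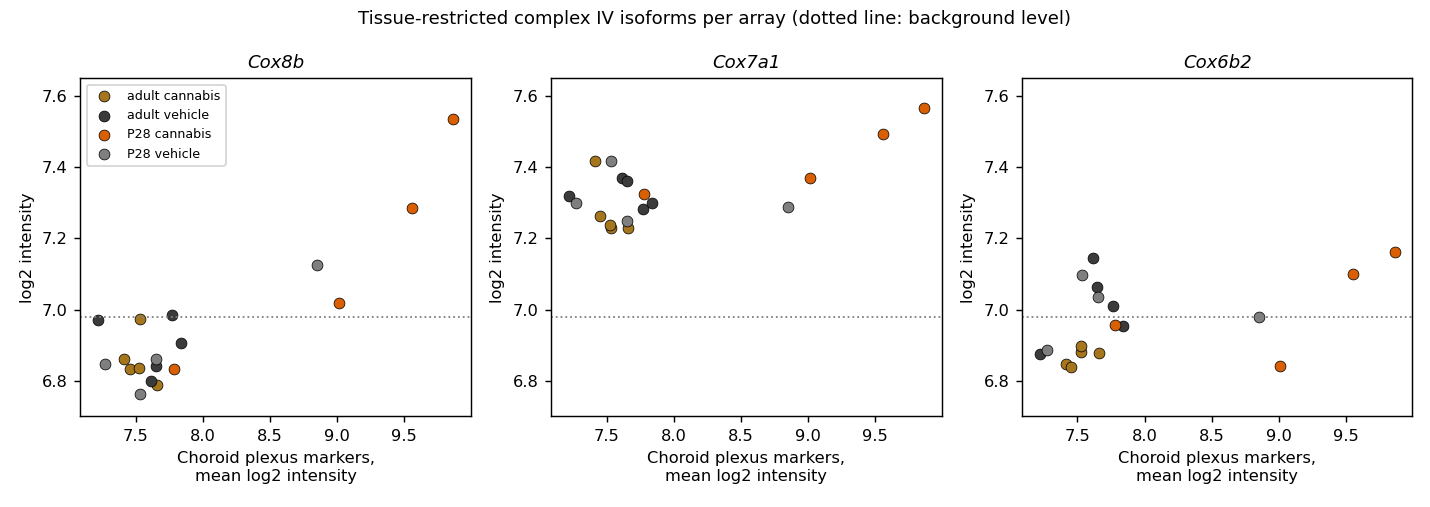
Log2 intensity of Cox8b, Cox7a1 and Cox6b2 (y axis) against the mean log2 intensity of 7 choroid plexus markers (x axis) in all 18 arrays, coloured by group; the dotted line is the background level of 6.98. For Cox8b the P28 cannabis array with the highest marker level, at 9.86, is also the highest at 7.54.

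Ndufa13, an accessory subunit of complex I also known as GRIM-19, had the same sign of difference at both ages. It measured 13.25, 13.20, 13.29, 13.25 and 13.21 in adult cannabis mice, against 13.14, 13.22, 13.06, 13.19 and 13.09 in adult vehicle mice. It measured 13.28, 13.32, 13.24 and 13.42 in P28 cannabis mice, against 13.17, 13.24, 13.17 and 13.20 in P28 vehicle mice. In adults the groups overlapped. At P28 the lowest cannabis array equalled the highest vehicle array. Each P28 cannabis array lay above the vehicle array of its number, though no label says that the numbers mark pairs. Averaged over both ages, the difference was 0.11 ± 0.03 (95% interval 0.04 to 0.18, unadjusted p = 0.0055), which did not pass adjustment (adjusted p = 1.00 in limma).

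One gene did not overlap between the P28 groups. Cox7a2l, kept apart from the complex IV subunits as a supercomplex factor, measured 9.77, 9.71, 9.83 and 9.82 in P28 cannabis mice, against 9.90, 9.89, 9.93 and 9.85 in P28 vehicle mice. That is 1 of 92 genes, while 1.59% of all probes did not overlap (0.84% higher, 0.747% lower). Its difference of -0.11 ± 0.08 did not pass (adjusted p = 1.00 in limma). In adults its values ran from 9.75 to 9.93 in cannabis mice and from 9.58 to 10.04 in vehicle mice.

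The second comparison asks what remained in adulthood. In adults, 0 of 92 genes passed in cannabis mice against vehicle mice, as did 0% of probes, with a lowest adjusted p of 1.00 in limma. There were 42 genes higher and 50 lower (probes 50.9% and 49.1%), with a median log2 difference of -0.01, against 0.001 over all probes. No gene's groups failed to overlap, against 0.362% of probes (0.181% in each direction). At an unadjusted p under 0.05 there were 2 genes (2.17%, against 3.55% of probes), Ndufa13 higher and Cox6b2 lower (probes 1.48% and 2.07%). Cox6b2, the testis isoform of a complex IV subunit, measured 6.88, 6.88, 6.85, 6.84 and 6.90 in adult cannabis mice, all under background, against 6.87, 7.01, 7.15, 6.95 and 7.06 in adult vehicle mice. Its probe is too dim for the size of a difference. The adult vehicle mean (7.01) lay 1.02-fold above the background level (6.98), a point estimate and not a confidence limit. Background was exceeded in 3 adult vehicle arrays, and the lowest vehicle array, at 6.87, lay within the adult cannabis range. The difference did not pass adjustment (unadjusted p = 0.041, adjusted p = 1.00 in limma).

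The 95% intervals of the core subunits included 0 in adults. The difference was 0.03 ± 0.04 for Ndufv1, -0.05 ± 0.08 for Uqcrc2, a core protein of complex III, -0.005 ± 0.08 for Cox5a and 0.01 ± 0.09 for Atp5b. Sdhb, the iron-sulfur subunit of complex II, had 0.13 ± 0.08. The complex levels were 10.61 ± 0.02 in adult cannabis mice and 10.62 ± 0.05 in adult vehicle mice for complex I. They were 10.43 ± 0.07 and 10.43 ± 0.07 for complex III, 10.14 ± 0.07 and 10.17 ± 0.05 for complex IV, and 10.77 ± 0.06 and 10.75 ± 0.05 for complex V, in the same order (SD, n = 5 each). For complex II, with 3 genes, the levels were 9.29 ± 0.14 in adult cannabis mice and 9.21 ± 0.15 in adult vehicle mice. That gap of 0.08 was the widest of the complexes. Each of these gaps was smaller than the SD of the adult vehicle arrays.

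The effect of cannabis was then compared between ages. In the interaction, the adult difference minus the P28 difference, 0 of 92 genes passed, as did 0% of probes. At an unadjusted p under 0.05 there were 2 genes, both below 0, 2.17% against 2.91% of probes (1.32% above 0, 1.59% below). By sign 40 were above 0 and 52 below (probes 50.5% and 49.5%). The pair were Sdhaf4, an assembly factor of complex II (-0.20 ± 0.09), and Cox7a1 (-0.18 ± 0.08). Averaged over ages, 0 of 92 passed, as did 0% of probes, with 46 genes higher and 46 lower in cannabis mice (probes 50.6% and 49.4%) and a median of 0.0002. By unadjusted p there were again 2, Ndufa13 and Ndufa2 (0.08 ± 0.04), both higher, or 2.17% against 2.06% of probes (1% higher, 1.06% lower).

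**Figure D4:**
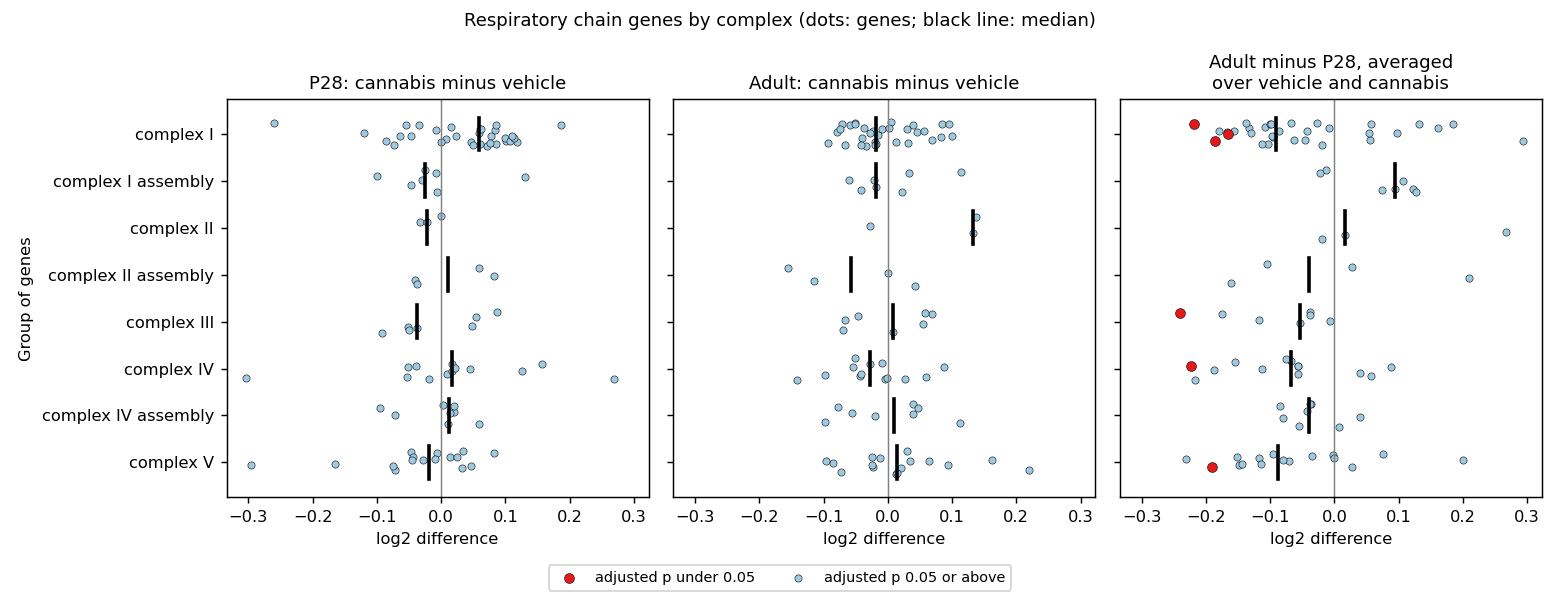
Log2 difference (x axis) of each respiratory chain gene, grouped by complex (y axis), for cannabis minus vehicle at P28, cannabis minus vehicle in adults and adult minus P28 averaged over both treatments. The black line is the median of a group and red dots passed an adjusted p of 0.05, which occurred for 6 genes in the age contrast alone, where the complex I median is -0.09.

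Between ages, respiratory chain genes were more often lower in adults. In vehicle mice 66 of 92 genes were lower in adults, while 47.9% of all probes were, and the median log2 difference was -0.06 against 0.006 over all probes. No gene passed on its own there (0 of 92, against 1.07% of probes). At an unadjusted p under 0.05, 3 were higher and 7 lower, together 10.9% against 13.5% of probes (6.14% higher, 7.36% lower), a share near the background. The age groups did not overlap for 1 gene higher in adults, Ndufa10, and 5 lower, the complex I subunits Ndufa3, Ndufs3 and Ndufs8, Uqcr11 and the complex II assembly factor Sdhaf1, against 6.21% of probes (2.67% higher, 3.54% lower). The lean was present in complex I (25 of 32 lower), complex III (6 of 7) and complex V (14 of 16), while 5 of 7 complex I assembly factors were higher.

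The cannabis mice gave their own values for the same contrast, from other arrays. There 60 of 92 genes were lower in adults, against 48.2% of probes, with a median of -0.07. No gene passed (0 of 92, against 0.0274% of probes), and 0 were higher and 15 lower at an unadjusted p under 0.05 (16.3%, against 10.6% of probes, 4.77% higher and 5.85% lower). Ndufc1 and Ndufa4 did not overlap between ages, both lower, against 2.71% of probes (1.26% higher, 1.45% lower). Complex III had 7 of 7 genes lower, complex I 23 of 32, complex IV 10 of 13 and complex V 11 of 16, and all 3 complex II genes were higher. In all, 52 genes were lower in adults in both treatments and 18 higher in both.

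With both treatments averaged, a contrast added after the data were seen, 10 adult arrays were set against 8 P28 arrays. Then 6 of 92 genes passed, all lower in adults, or 6.52% of members against 4.97% of probes in either direction and 3.11% lower. They were Ndufa4 of complex IV, Uqcr11 of complex III, Ndufc1, Ndufa3 and Ndufs4 of complex I, and Atp5l of complex V. By sign 65 of 92 were lower, against 47.2% of probes. At an unadjusted p under 0.05, 3 were higher and 20 lower, 25% against 19.3% of probes (8.89% higher, 10.4% lower). No gene separated all 10 adult from all 8 P28 arrays, against 0.368% of probes (0.126% higher, 0.242% lower). The median was -0.09 for complex I (24 of 32 lower), -0.05 for complex III (7 of 7), -0.07 for complex IV (10 of 13) and -0.09 for complex V (12 of 16). For complex II it was 0.02 (1 of 3), and for complex I assembly factors it was 0.09 (2 of 7). The complex levels differed by -0.05 (I), 0.09 (II), -0.10 (III), -0.08 (IV) and -0.07 (V).

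In complex I, Ndufa3, an accessory subunit of the membrane arm, measured 10.68, 10.78, 10.92, 10.63 and 10.65 in adult cannabis mice and 10.67, 10.81, 10.69, 10.69 and 10.60 in adult vehicle mice. It measured 10.83, 10.86, 11.06 and 11.03 in P28 cannabis mice and 10.90, 10.81, 10.81 and 10.86 in P28 vehicle mice. Of the 10 adult arrays 9 lay below the lowest P28 array. The averaged log2 difference was -0.19 ± 0.05 (SE, adjusted p = 0.0306 in limma).

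Ndufc1, another small accessory subunit of that arm, measured 10.56, 10.67, 10.35, 10.48 and 10.47 in adult cannabis mice and 10.59, 10.57, 10.74, 10.39 and 10.61 in adult vehicle mice. It measured 10.70, 10.87, 10.92 and 10.79 in P28 cannabis mice and 10.70, 10.85, 10.71 and 10.56 in P28 vehicle mice. The cannabis groups did not overlap between ages and the vehicle groups did. The averaged difference was -0.22 ± 0.06 (adjusted p = 0.0296 in limma).

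Ndufs4, an accessory subunit of the matrix arm whose loss causes a fatal encephalopathy in mice, measured 10.19, 10.41, 10.30, 10.39 and 10.36 in adult cannabis mice and 10.30, 10.44, 10.23, 10.27 and 10.40 in adult vehicle mice. It measured 10.58, 10.39, 10.52 and 10.42 in P28 cannabis mice and 10.44, 10.52, 10.56 and 10.53 in P28 vehicle mice. Of the 10 adult arrays 7 lay below the lowest P28 array, and the averaged difference was -0.16 ± 0.04 (adjusted p = 0.0325 in limma).

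In complex III, Uqcr11, its smallest subunit, measured 12.15, 12.00, 11.80, 11.97 and 11.78 in adult cannabis mice and 11.94, 12.01, 11.80, 11.81 and 11.85 in adult vehicle mice. It measured 12.19, 12.25, 12.13 and 12.14 in P28 cannabis mice and 12.19, 12.21, 12.06 and 12.06 in P28 vehicle mice. The vehicle groups did not overlap between ages, and 9 of the 10 adult arrays lay below the lowest P28 array. The averaged difference was -0.24 ± 0.05 (adjusted p = 0.0107 in limma).

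In complex IV, Ndufa4, named as a complex I gene and now counted as a subunit of cytochrome c oxidase, measured 12.71, 12.69, 12.44, 12.67 and 12.57 in adult cannabis mice and 12.83, 12.52, 12.60, 12.55 and 12.62 in adult vehicle mice. It measured 12.89, 12.82, 12.80 and 12.91 in P28 cannabis mice and 12.88, 12.81, 12.81 and 12.82 in P28 vehicle mice. Adult vehicle replicate 1 reached into the P28 range and the remaining 9 adult arrays lay below it. The averaged difference was -0.22 ± 0.05 (adjusted p = 0.0102 in limma).

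In complex V, Atp5l, subunit g in the membrane part of ATP synthase, measured 11.35, 11.51, 11.26, 11.28 and 11.12 in adult cannabis mice and 11.43, 11.30, 11.21, 11.39 and 11.31 in adult vehicle mice. It measured 11.57, 11.45, 11.65 and 11.52 in P28 cannabis mice and 11.37, 11.41, 11.55 and 11.52 in P28 vehicle mice. The ages overlapped in both treatments, and the averaged difference was -0.19 ± 0.05 (adjusted p = 0.0365 in limma). Atp5d, the δ subunit of the rotor, fell just outside the threshold at -0.23 ± 0.07 (adjusted p = 0.051 in limma).

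**Figure D5:**
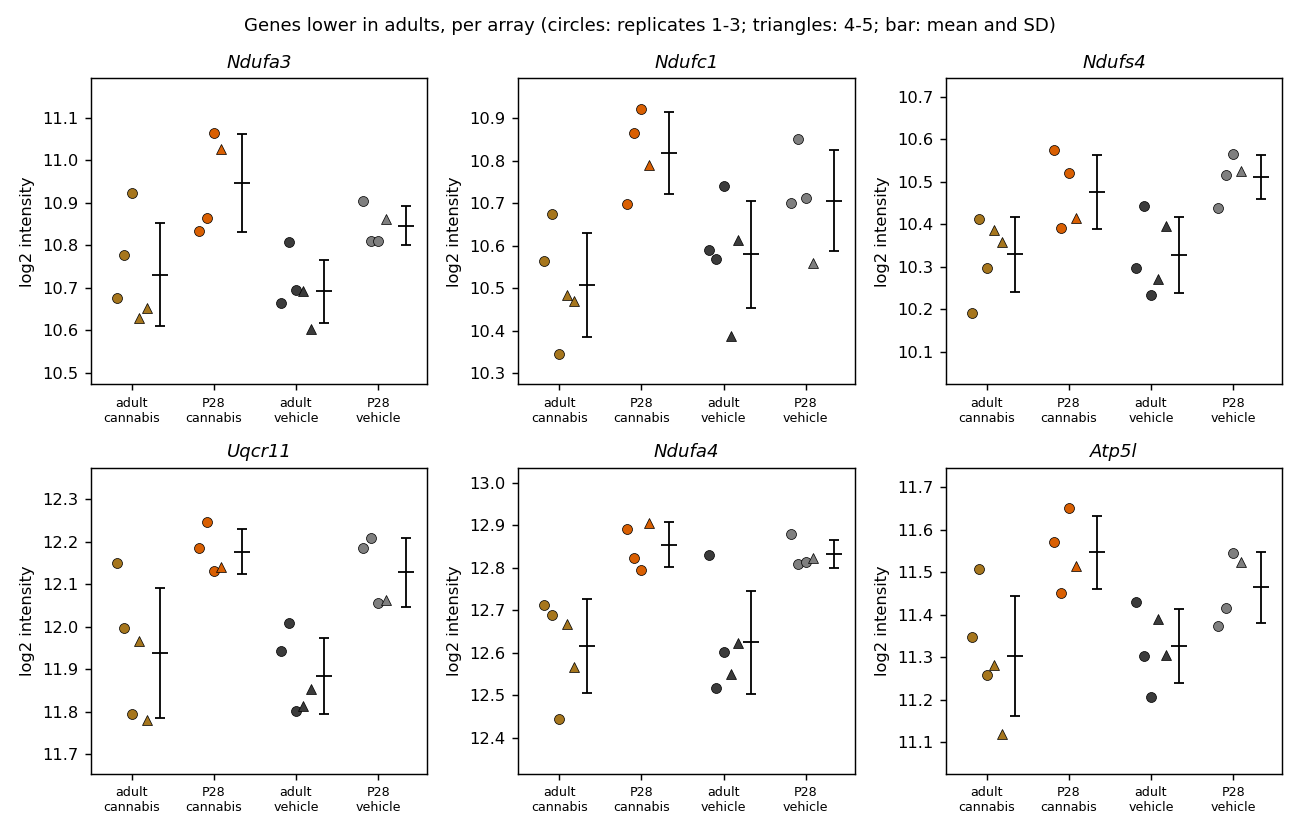
Log2 intensity (y axis) of the 6 genes that passed in the averaged age contrast, in every array of the 4 groups (x axis), with the group mean and SD. For Ndufa4, Uqcr11 and Ndufa3, 9 of the 10 adult arrays lie below the lowest P28 array.

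The promoters of these genes are shown for the genes that passed in the age contrast, with the letters of 4 motifs known from nuclear genes of mitochondria. Sequences are from RefSeq (GRCm38.p6), which had an entry for 83 of the 100 genes, and run from 250 bases before the gene start to 50 bases from it on, 300 bases in all. The motifs, chosen after the values were seen and searched on both strands, were the NRF1 palindrome, CCGGAAGT (ETS factors), AAGATGGC (YY1) and TCAAGGTCA (ERR). Capitals mark a match. Ndufs4 (chr13:114388045-114388344, minus strand), Ndufa3 (chr7:3617123-3617422, plus strand) and Ndufc1 (chr3:51408906-51409205, minus strand) held the YY1 letters just downstream of the start, and Uqcr11 (chr10:80406772-80407071, minus strand) the ETS letters upstream.
Ndufs4: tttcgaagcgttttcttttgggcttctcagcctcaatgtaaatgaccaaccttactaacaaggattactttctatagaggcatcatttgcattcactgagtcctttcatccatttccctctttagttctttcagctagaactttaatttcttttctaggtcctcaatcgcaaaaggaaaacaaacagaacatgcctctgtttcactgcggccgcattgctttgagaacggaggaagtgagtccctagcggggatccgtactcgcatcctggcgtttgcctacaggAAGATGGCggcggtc
Ndufa3: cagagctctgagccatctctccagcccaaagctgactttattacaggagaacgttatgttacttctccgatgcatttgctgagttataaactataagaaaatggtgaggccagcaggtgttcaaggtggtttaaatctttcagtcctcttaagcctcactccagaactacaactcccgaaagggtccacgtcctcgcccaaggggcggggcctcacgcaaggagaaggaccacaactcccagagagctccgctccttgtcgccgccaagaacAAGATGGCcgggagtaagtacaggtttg
Ndufc1: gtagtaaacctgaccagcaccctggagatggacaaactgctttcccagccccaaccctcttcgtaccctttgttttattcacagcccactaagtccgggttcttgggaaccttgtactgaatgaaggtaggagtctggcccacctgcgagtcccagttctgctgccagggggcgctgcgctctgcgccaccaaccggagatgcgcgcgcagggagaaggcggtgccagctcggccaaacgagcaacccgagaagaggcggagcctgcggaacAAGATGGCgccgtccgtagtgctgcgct
Uqcr11: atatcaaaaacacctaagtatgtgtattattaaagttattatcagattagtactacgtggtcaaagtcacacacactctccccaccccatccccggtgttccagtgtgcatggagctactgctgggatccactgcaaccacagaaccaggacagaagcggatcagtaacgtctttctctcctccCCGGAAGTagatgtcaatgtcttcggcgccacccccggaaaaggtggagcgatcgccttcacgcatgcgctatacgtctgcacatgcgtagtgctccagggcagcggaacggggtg
The windows of Ndufa4 and Atp5l held none of the 4.

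The YY1 letters began at base 23 after the start in Ndufa3 and Ndufc1 and at base 36 in Ndufs4. Of the 83 respiratory chain genes with a promoter entry, 13 (15.7%) held them, against 3.19% of 27025 genes with windows of the same length. A gene counted if any of its promoters held the letters. The NRF1 letters occurred in 7 (8.43%, against 1.07%), the ETS letters in 8 (9.64%, against 4.31%) and the ERR letters in 2 (2.41%, against 0.466%). A match is a description of the letters only.

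Genes higher in adults did not pass. Sdhaf3, an assembly factor of complex II, measured 8.69, 8.43, 8.29, 8.38 and 8.38 in adult cannabis mice and 8.75, 8.32, 8.65, 8.51 and 8.71 in adult vehicle mice. It measured 8.30, 8.46, 8.10 and 8.27 in P28 cannabis mice and 8.24, 8.40, 8.26 and 8.39 in P28 vehicle mice. The averaged difference was 0.21 ± 0.07 (adjusted p = 0.079 in limma) and the ages overlapped. Ndufa10, an accessory complex I subunit, had the largest difference of any member at 0.29 ± 0.10 (adjusted p = 0.115 in limma). Its adult arrays ran from 11.09 to 12.10 and its P28 arrays from 11.01 to 11.47.

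Among core subunits and isoforms that could be measured, these did not pass with age. The averaged difference was 0.06 ± 0.03 for Ndufv1, -0.18 ± 0.07 for Uqcrc1, a core protein of complex III, -0.06 ± 0.09 for Cox4i1 and -0.003 ± 0.07 for Atp5b. Of the general complex IV isoforms, Cox6a1 had -0.22 ± 0.09 and Cox6b1 had -0.19 ± 0.08, while the muscle isoform Cox6a2 had -0.06 ± 0.09. The Cox6b2 probe was too dim for a difference. The lowest adjusted p of these 7 genes was 0.17, for Cox6a1 (limma).

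The age result depended on which arrays were used. In replicates 1 to 3 alone 0 genes passed, as did 1% of probes, 54 of 92 were lower and the median was -0.03. In replicates 4 and 5 alone, as values, 76 were lower with a median of -0.11. With replicates 4 and 5 as a block, 10 genes passed lower and 1 higher, together 12% against 7.36% of probes. The count was 2 without P28 cannabis replicate 3 or without P28 vehicle replicate 3, and 3 without adult cannabis replicate 5, P28 cannabis replicate 4 or P28 vehicle replicate 2. Over 30 alternative fits Ndufa4 and Uqcr11 passed in 28 each, Ndufc1 in 19, Ndufs4 in 17, Ndufa3 in 16 and Atp5l in 14. Ndufa3, Ndufc1, Ndufs4 and Atp5l had further probes above background, and all of them were lower in adults. Over all members with several such probes, the signs agreed in 21 of 27 genes in the averaged contrast, 20 of 27 in vehicle mice and 18 of 27 in cannabis mice.

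Cell type markers moved with age in the same arrays. All 7 oligodendrocyte markers that could be tested fell in adults (7 of 7 passed, median -1.01 in limma). Their mean level ran from 10.72 to 11.53 in adult cannabis mice and from 10.42 to 11.19 in adult vehicle mice, against 11.74 to 12.53 in P28 cannabis mice and 11.89 to 12.25 in P28 vehicle mice. In bulk tissue, fewer cells of a type and less RNA per cell cannot be told apart. Also lower were 2 of 3 markers of oligodendrocyte precursors, 4 of 7 of choroid plexus and 2 of 2 of blood. Of 6 neuronal markers Rbfox3 rose by 0.36 and Slc17a7 and Stmn2 fell by 0.26 and 0.22 on the log2 scale, and of 5 endothelial markers Flt1 rose. No marker of 7 for interneurons, 7 for astrocytes, 8 for microglia, 3 for mural cells or 1 for muscle passed. The part of these cell types in the respiratory chain values was not tested, except that with the choroid plexus level in the model 0 of 92 genes passed, as did 0% of probes. In that model 62 genes were lower in adults, 59 of them also lower without it. The differences of the 6 genes ranged from -0.25 (Uqcr11) to -0.16 (Ndufa3), against -0.24 (Uqcr11) to -0.16 (Ndufs4) without the level. Their SEs were larger, at 0.07 against 0.05 for Uqcr11, and their adjusted p-values lay between 0.135 and 0.373 (limma).

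Genes around the chain did not pass in the same contrast. None passed among 18 genes of the citric acid cycle and pyruvate dehydrogenase (8 higher, 10 lower, median -0.02), 14 of glycolysis (8 and 6, 0.01) or 10 of ADP/ATP exchange and the outer membrane (8 and 2, 0.03). None passed among 72 of the mitochondrial ribosome (34 and 38, -0.006), 14 regulators of mitochondrial genes (9 and 5, 0.009), 13 electron carriers and related factors (5 and 8, -0.01) or 16 further assembly factors (12 and 4, 0.02). Their lowest adjusted p was 0.071 in limma. In vehicle mice alone Coq5, an enzyme of ubiquinone synthesis, was higher in adults (9.99 in adult vehicle mice and 9.77 in P28 vehicle mice, difference 0.22 ± 0.05, adjusted p = 0.0388 in limma). In the cannabis contrasts at P28, in adults and averaged, none of these 7 lists had a gene that passed, 0% of probes doing so.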

How the data were processed

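The authors deposited log2 probe intensities, 1 column per sample. All 18 columns hold the same distribution (median 6.86, range 6.5 to 15.08), so these log2 values had been normalised by the authors between arrays, per the values of the deposited table. RNA was isolated with TRIzol and labelled as biotin cRNA, per the labels' protocols. Partek is named, per the submitters' processing notes, and its steps and the array scanner's settings are not given in the sources used here. Another 72 per-sample columns, of further deposited tables, carry slide positions that match no sample label and were not used.

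Unexpressed probes formed a peak at 6.77 (SD 0.0704), and probes above 6.98, 3 SD over it, in at least 4 arrays were kept, 18217 of 45281. Precision is limited by how many arrays each group has. The 4 group means were estimated together from all 18 arrays by limma 3.58.1 under R 4.3.3. P-values are 2-sided and adjusted by Benjamini-Hochberg across every kept probe, with 0.05 as the threshold. Symbols came from the platform annotation (34885 probes with 1 symbol, 18 with several, 10378 unnamed). Members, gene lists and tests were chosen with earlier results of these data known. Named genes are, per contrast, all that passed (where fewer than 5 did in a direction, the best 5 by p there), the best 2 by p in each complex, and a set list of core subunits and isoforms. Genes named for the replicate split or for groups without overlap were otherwise chosen after their values were seen. Replicate numbers were checked for pairing: deviations of same-numbered P28 cannabis and vehicle arrays correlated at 0.196, 0.339, 0.383 and 0.534, all over 0.1. Adult cannabis and vehicle replicates 1 to 5 gave -0.151, 0.33, 0.164, 0.498 and 0.43. Same-numbered arrays of different ages gave 0.0722 to 0.574 in vehicle mice and -0.0842 to 0.641 in cannabis mice. These values cannot decide whether numbers mark pairs. Same-numbered arrays share the split of replicates 4 and 5, and no correlation of differently numbered arrays is given beside them. Alternatives are described in the closing section. The fit was also tried on simulated data, where it recovered most changes of 0.5 on the log2 scale and few of 0.2. More of the latter were recovered in the averaged age contrast than in the others. Those data had independent noise for each probe and no split of replicates 4 and 5. They therefore cannot show how the fit performs on these arrays.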

Additional observations from a re-analysis of the deposited data

Results flagged for a closer look

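Cox7a1, the muscle isoform of a complex IV subunit, was far from the rest of its group in adult cannabis replicate 3, at 7.42 (7.4188), while the other 4 adult cannabis arrays lay between 7.23 and 7.26. The gap to the nearest array was 0.826 of the range of the group. This was 1 of 96 sets of values examined for such a gap, and chance flags about 1 in 20 sets.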

How the results depend on the processing

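The counts of genes past the threshold in the cannabis contrasts, the interaction and age in cannabis mice were 0 under every alternative run. Both other age contrasts moved, and for all of these the cause was not tested. In vehicle mice alone, where 0 genes passed, 3 did with array weights, and 1 each with only the groups compared, with replicates 4 and 5 as a block and with a block of 3 sets of 6 arrays by order of deposit. Leaving out single replicates gave 0 to 1 there, 1 without adult vehicle replicate 2. In the averaged age contrast, where 6 passed, 3 did with a log2 change of at least 0.2 as well, 3 with a trend and robust prior, 2 with normexp background correction, 11 with replicates 4 and 5 as a block, 11 with the sets of deposit as a block, 0 in replicates 1 to 3 alone and 0 with the choroid plexus level in the model; leaving out single replicates gave 2 to 8. With the replicate number as a block it was 8 (4.91% of probes), and the count stayed 0 of 92 in every other contrast. Whether replicate numbers mark pairs is not known, and the correlations of same-numbered arrays cannot decide it. Normexp correction moved the complex IV level, adult minus P28 in cannabis, to -0.1616, and the complex IV level, treatment by age interaction, to -0.1121. The other 528 values of main results kept their direction and side, and no result reversed. Dim probes near background, such as Cox8b and Cox6b2, limit what can be read from them.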
